A study of Mus musculus with 2 samples.

Results

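Genes that make and use glutathione and thioredoxin, the main thiol defences of the cell against oxidants, were described in mouse hippocampus across wild type, AtrxdE2 and AtrxdE2 given TMPyP4. The members were all probes whose gene name in the platform annotation begins with the stems of the glutathione S-transferases, microsomal glutathione transferases, glutathione peroxidases, peroxiredoxins, superoxide dismutases, thioredoxins, glutamate-cysteine ligase subunits or quinone reductases. There were 61 such probes among 23473, 1 for each of 61 gene symbols, and 55 of them were measured, that is, above background in both channels of both arrays and not marked bad. Of the 61 symbols, 51 are current in RefSeq and 10 are older names that matched 1 current gene each. Older symbols are kept here, each followed by its present name.

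Each group was 1 pool of RNA from 5 mice, and 2 arrays were hybridised. One carried wild type (Cy5) and AtrxdE2 (Cy3), mice that carry the AtrxΔE2 allele, a mutation of Atrx, which encodes a chromatin remodeller. The other carried wild type (Cy5) and AtrxdE2+TMPyP4 (Cy3), mice of the same allele given the G-quadruplex-binding porphyrin TMPyP4 by intraperitoneal injection at 30 mg/kg, 2 times a week from postnatal day 30 to day 90. The labels name no injection for the other pools, do not say whether both wild-type channels held the same pool, and give no swap of dyes, so dye and genotype cannot be told apart within an array. Sex and age at collection are not in the labels used here. Each group being 1 pool, values could not be checked against replicates and no test was run. In whole tissue, fewer cells of a type and less RNA per cell cannot be told apart.

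Glutathione is built by glutamate-cysteine ligase and glutathione synthetase, is used by peroxidases to reduce peroxides and by S-transferases to tag reactive compounds, and is regenerated by glutathione reductase. Thioredoxins, kept reduced by NADPH-dependent thioredoxin reductases, pass electrons to the peroxiredoxins, and a large set of further proteins carries the thioredoxin fold, many of them in the endoplasmic reticulum, where they form and rearrange disulfide bonds. Superoxide dismutases supply hydrogen peroxide from superoxide upstream of both systems. Many of these genes carry antioxidant response elements, the sites of the transcription factor NRF2, and in brain much of the glutathione supply is attributed to astrocytes.

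The upstream sequence of the members was searched for the core of that element, and, in a search added after seeing the data, for a G-quadruplex pattern, the DNA form TMPyP4 binds. RefSeq start sites (GRCm38.p6) were found for 54 of the 61 members, and the 250 bases upstream were read on both strands. The core TGACNNNGC was present in 12 of the 54 members (22.2%), against 11.5% of all 27025 genes in that table. A pattern of 4 runs of GGG separated by 1 to 7 bases was present in 7 of 54 (13%), against 18.4% of all genes. Both motifs were allowed to overlap other matches, and a match is a description of the letters only. Shown are the element cores of the ligase subunit gene Gclm, the peroxiredoxin gene Prdx1 and the reductase gene Txnrd1, all textbook NRF2 targets, and those of Txndc13 (now Tmx4) and Gstm7, which stood at the low ends of the comparisons below. Capitals mark the match, and each sequence is written 5′ to 3′ on the strand of its gene.
Gclm, chr3:122245403-122245451, plus strand: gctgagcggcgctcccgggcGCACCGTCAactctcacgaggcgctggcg
Prdx1, chr4:116685446-116685494, plus strand: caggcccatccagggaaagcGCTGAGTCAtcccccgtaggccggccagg
Txnrd1, chr10:82859094-82859142, plus strand: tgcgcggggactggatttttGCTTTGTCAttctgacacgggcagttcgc
Txndc13, chr2:134644176-134644224, minus strand: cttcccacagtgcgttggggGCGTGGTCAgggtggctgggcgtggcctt
Gstm7, chr3:107931715-107931763, minus strand: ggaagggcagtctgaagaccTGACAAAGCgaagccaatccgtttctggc
The G-quadruplex pattern is shown for Txn2, the mitochondrial thioredoxin gene, where it lies on the opposite strand and therefore reads as runs of C. Of the 7 members with the pattern, Txn2 was the only one whose treated-minus-untreated difference passed 1.5-fold after loess (0.59, below). The difference was -0.0019 for Gstm3, -0.0091 for Prdx1, 0.070 for Sod1, 0.047 for Txndc3, -0.27 for Txnip and 0.16 for Txnl2. A link of the pattern to the values was not tested.
Txn2, chr15:77929140-77929204, minus strand: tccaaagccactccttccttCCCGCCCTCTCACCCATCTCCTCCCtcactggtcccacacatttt
Txndc4 (now Erp44), the member farthest from wild type in the treated pool, held neither motif in these windows, and Txnl1 is not in the promoter table.

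As a whole the members lay close to wild type in both mutant pools after loess. With median centring the treated ratios were higher, with 42 of 55 members above 0 and a median of 0.30. The log2 ratio of AtrxdE2 over wild type had a median of -0.013 (SD 0.22 over the 55 measured members, range -0.64 to 0.45), with 25 members above 0 and 30 below. Over all 18668 measured probes the median was 0.0018 (SD 0.20). A probe was called when it differed by at least 1.5-fold, a log2 value of 0.58. By this rule 1 of 55 members was called in AtrxdE2, Txndc13 on the lower side, against 1.3% of all measured probes in either direction and 0.68% on the lower side. For AtrxdE2+TMPyP4 over wild type the median was 0.034 (SD 0.21, range -0.57 to 0.67), against 0.0057 over all measured probes (SD 0.20), with 33 members above 0. Again 1 member was called, Txndc4 on the higher side, against 1.46% of all probes in either direction, 0.895% on the higher and 0.562% on the lower side. The scaling sets these splits: over all probes 115 were called higher and 127 lower in AtrxdE2, but 364 and 56 with median centring instead of loess. In the treated pool they were 167 and 105, but 1284 and 124 with median centring, under which 11 members were higher and 2 lower. At 2-fold no member was called on either array, against 0.0857% and 0.214% of all probes. Ratios of 60.0% of members and 51.7% of all measured probes were above 0 on the treated array, and of 45.5% and 50.5% on the untreated one.

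**Figure D1:**
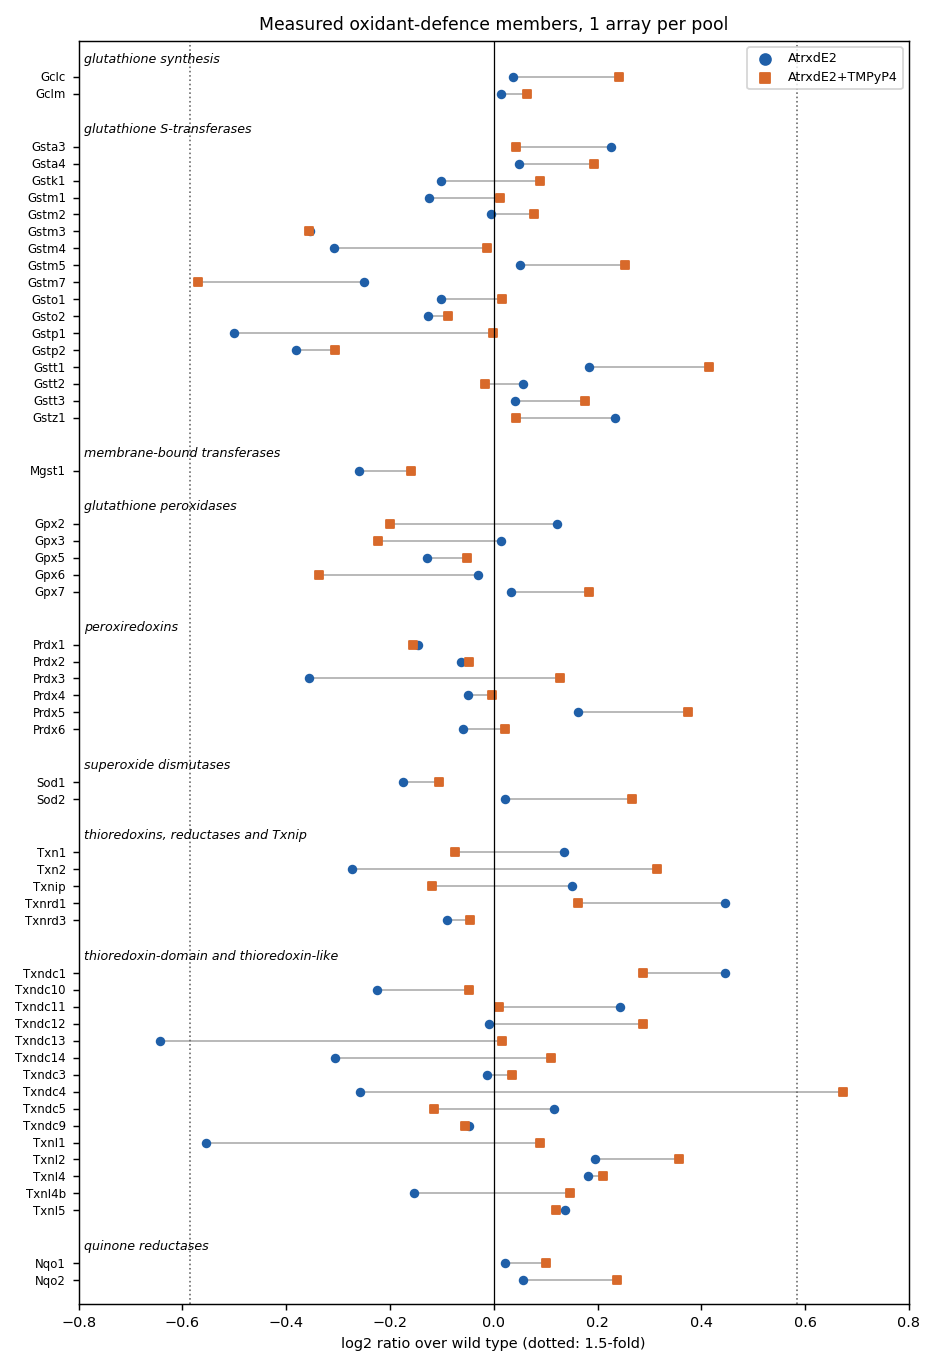
Log2 ratio over wild type (x axis) of the 55 measured members (y axis, grouped by role) on the AtrxdE2 array (circles) and the AtrxdE2+TMPyP4 array (squares), 1 array each and so without error bars; dotted lines mark 1.5-fold. Txndc13 at -0.64 is the only circle and Txndc4 at 0.67 the only square beyond a dotted line.

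The difference of both ratios, treated minus untreated, had a median of 0.080 over the members (SD 0.26, range -0.32 to 0.93) and of 0.0073 over all measured probes (SD 0.26). It was above 0 for 38 of 55 members, 69.1%, against 51.4% of all measured probes. With the Cy3 channels set directly against each other, without wild type, 32 of 55 members were above 0, with a median of 0.061. Of the 55 members 4 were called, all of them higher in the treated pool (Txndc4, Txndc13, Txnl1 and Txn2), against 3.62% of all probes in either direction and 2.11% on the higher side. All probes split into 394 higher and 281 lower, and into 845 and 368 with median centring. A difference between arrays is read against wild type, the genotype that was on both. After quantile normalization the wild-type channels differed by an SD of 0.28 log2 units over the members and of 0.27 over all measured probes. By 1.5-fold, 3 members differed between the wild-type channels, Txndc12 and Txnl1 (higher on the second array) and Gstm5 (lower), against 4.62% of all probes, 1.74% on the higher and 2.88% on the lower side. The treated-minus-untreated difference was larger in size than the wild-type difference between the arrays for 27 of 55 members, against 50.5% of all measured probes. These are unlike measures: a shift shared by both channels of an array drops out of the ratios but not of the wild-type difference.

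**Figure D2:**
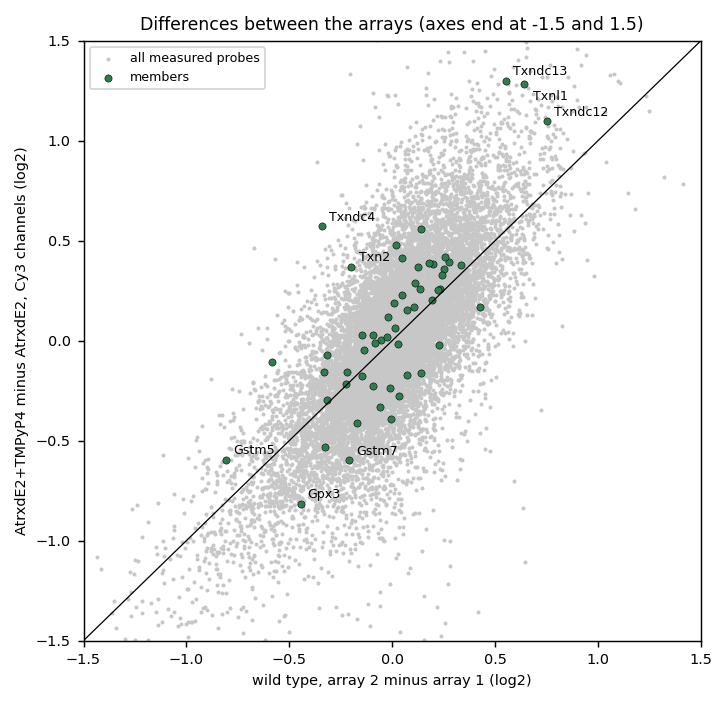
Difference between the arrays in the wild-type channels (x axis, log2) against that in the Cy3 channels, AtrxdE2+TMPyP4 minus AtrxdE2 (y axis, log2), both after quantile normalization, for the members (dark points) and all measured probes within the axes (grey); the line marks equal differences. Txnl1, Txndc13 and Txndc12 lie at the upper right, with wild-type differences of 0.64, 0.55 and 0.75, whereas Txndc4 and Txn2 lie at the upper left, with wild-type differences of -0.34 and -0.20.

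The members with thioredoxin-domain and thioredoxin-like names held 3 of the 4 calls of the difference. Txndc4 encodes ERp44, a protein of the early secretory pathway that retains client proteins through mixed disulfides. Its normalized log2 level on the first array was 8.54 in wild type and 8.28 in AtrxdE2. The second array had 8.20 in wild type and 8.88 in AtrxdE2+TMPyP4. The treated pool was the highest of these 4 values. The log2 ratio over wild type was -0.26 in AtrxdE2 and 0.67 in AtrxdE2+TMPyP4, a difference of 0.93, and the SD of these quantities over the 500 probes nearest in signal was 0.24, 0.24 and 0.32. The authors' value table, which has another background step and no loess, gives -0.32 and 0.79. Setting the Cy3 channels against each other without wild type gave 0.57, just short of 1.5-fold.

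Txndc13 encodes a thioredoxin-related membrane protein of the endoplasmic reticulum. Its levels were 8.13 (wild type) and 7.49 (AtrxdE2), then 8.71 (wild type) and 8.73 (AtrxdE2+TMPyP4) on the other array. AtrxdE2 was therefore the lowest channel, but the quantile-normalized wild-type channels were themselves 0.55 apart. The log2 ratio was -0.64 in AtrxdE2 (SD of probes nearest in signal 0.23, -0.90 in the authors' value table) and 0.016 in the treated pool, a difference of 0.66. Under median centring the AtrxdE2 ratio was -0.55, short of 1.5-fold. Txnl1, a cytosolic thioredoxin-like protein that associates with the proteasome, had the same order of channels, 9.99 (wild type) and 9.43 (AtrxdE2), then 10.62 (wild type) and 10.70 (AtrxdE2+TMPyP4). Its ratios were -0.55 (-0.60 in the authors' value table) and 0.089, a difference of 0.64 (SD of probes nearest in signal 0.30). Its wild-type channels also differed by 0.64 after quantile normalization. That compares single channels between arrays, whereas a shift shared by both channels of an array drops out of the ratios.

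Of the 18 members with such names 15 were measured, with a median of -0.013 in AtrxdE2, 0.11 in AtrxdE2+TMPyP4 (12 of 15 above 0) and 0.16 for the difference (10 of 15 above 0). With median centring the treated median was 0.42 (13 of 15 above 0), and Txnl2 (0.82), Txndc12 (0.64) and Txndc1 (0.63) passed 1.5-fold there beside Txndc4. Further membrane thioredoxins of the endoplasmic reticulum did not follow Txndc13 in AtrxdE2 by size: Txndc14 (now Tmx2) was at -0.31 (its difference of 0.42 was 0.66 with median centring), Txndc10 (now Tmx3) at -0.22 and Txndc1 (now Tmx1) at 0.45. Txndc1 had levels of 9.48 in wild type and 9.93 in AtrxdE2, and of 9.14 and 9.42 on the treated array, so it was higher than the wild type beside it on both arrays, by 0.45 and 0.29. The first value was 0.65 with median centring, past 1.5-fold. Txndc12, another resident of that compartment, had 8.45 in wild type and 8.44 in AtrxdE2, and 9.22 and 9.51 on the treated array. Both channels of the treated array were thus higher, its ratios were -0.0098 and 0.29, and the direct Cy3 difference was 1.10. The disulfide isomerase-like gene Txndc5 was at 0.12 and -0.12, and Txndc11, whose product partners NADPH oxidases of the DUOX type, at 0.24 and 0.0094. The iron-sulfur protein gene Txnl2 (now Glrx3) was at 0.19 and 0.36. The splicing factor genes Txnl4 (now Txnl4a) and Txnl4b were at 0.18 and 0.21, and at -0.15 and 0.15. Txnl5 (now Txndc17), which encodes a small cytosolic disulfide reductase, was at 0.14 and 0.12, Txndc9 at -0.048 and -0.055, and Txndc3 (now Nme8) at -0.013 and 0.034.

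**Figure D3:**
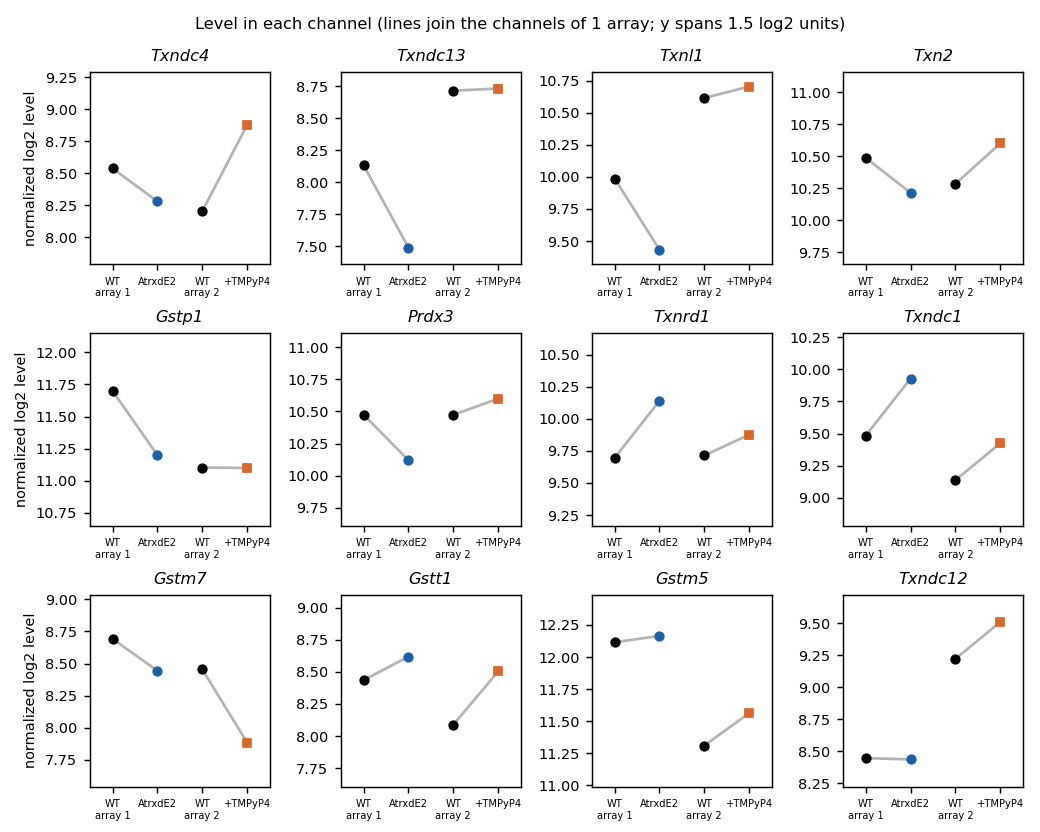
Normalized log2 level (y axis, 1.5 units in every panel) of 12 members in the 4 channels (x axis); lines join the channels of 1 array, with wild type in black, AtrxdE2 as a circle and AtrxdE2+TMPyP4 as a square, 1 pool each. Txndc13, Txnl1 and Txndc12 have wild-type levels that lie apart between the arrays (8.13 and 8.71, 9.99 and 10.62, 8.45 and 9.22), whereas the wild-type levels of Prdx3 and Txnrd1 nearly coincide.

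The thioredoxins with their reductases and Txnip had a median of 0.14 in AtrxdE2, -0.045 in AtrxdE2+TMPyP4 and -0.21 for the difference. The treated median was 0.29 with median centring and that of the difference 0.17 (3 of 5 above 0) in the direct Cy3 difference, so no direction holds for either. Txn2, the mitochondrial thioredoxin, had levels of 10.49 (wild type) and 10.22 (AtrxdE2), then 10.28 (wild type) and 10.60 (AtrxdE2+TMPyP4). Its ratios were -0.27 and 0.31, a difference of 0.59 (SD of probes nearest in signal 0.29), which fell short of 1.5-fold when loess was run within each block of the array (0.55) and in the direct Cy3 difference (0.37). With median centring its treated ratio, 0.74, was itself past 1.5-fold. Txn1, the cytosolic thioredoxin, had levels of 7.11, 7.24, 7.16 and 7.08 in the same order, hence ratios of 0.14 and -0.074. Txnip, which encodes the thioredoxin-interacting inhibitor, was at 0.15 and -0.12, with a difference of -0.27 that was 0.17 in the direct Cy3 difference. Txnrd1, the cytosolic thioredoxin reductase, shared the highest ratio of the measured members in AtrxdE2 with Txndc1, 0.45, with levels of 9.69 in wild type and 10.14 in AtrxdE2. In the treated pool it was at 0.16 (9.71 and 9.88). Its wild-type channels differed by 0.032, so the reductase was higher in AtrxdE2 against either wild-type channel, short of 1.5-fold after loess and past it with median centring (0.65). Txnrd3, a reductase first described in testis, was at -0.090 and -0.045.

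All 6 peroxiredoxins were measured, and none was called after loess. In AtrxdE2 5 of 6 were below 0, with a median of -0.061, but 5 of 6 were above 0 with median centring (median 0.11), so no direction holds for the family. In the treated pool 3 of 6 were above 0, and 6 of 6 with median centring. Prdx3, the mitochondrial peroxiredoxin that Txn2 reduces, stood out within it. Its levels were 10.48 (wild type) and 10.12 (AtrxdE2), then 10.47 (wild type) and 10.60 (AtrxdE2+TMPyP4), so both wild-type channels lay together and AtrxdE2 lay below all others. The ratios were -0.36 and 0.13, a difference of 0.48 (SD of probes nearest in signal 0.29), and 0.70 with median centring. Prdx5, found in mitochondria, peroxisomes and cytosol, was at 0.16 and 0.37, and its treated ratio was 0.85 with median centring, past 1.5-fold. The abundant cytosolic forms Prdx1 and Prdx2 were at -0.15 and -0.16, and at -0.063 and -0.048, the endoplasmic reticulum form Prdx4 at -0.050 and -0.0024, and Prdx6, which acts through glutathione and has phospholipase activity, at -0.059 and 0.021.

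Of the superoxide dismutases, Sod1 of the cytosol and Sod2 of the mitochondrial matrix were on the array. Sod1 had ratios of -0.18 and -0.11, and Sod2 of 0.022 and 0.27, with Sod2 levels of 10.48, 10.51, 10.66 and 10.92 in wild type, AtrxdE2, wild type of the second array and AtrxdE2+TMPyP4. With median centring the treated ratio of Sod2 was 0.70, past 1.5-fold. The treated-minus-untreated difference was 0.070 for Sod1 and 0.24 for Sod2, and 0.33 and 0.39 in the direct Cy3 difference.

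The ligase subunits had a median of 0.025 in AtrxdE2 and of 0.15 in AtrxdE2+TMPyP4, the latter 0.52 with median centring. The catalytic ligase subunit Gclc had ratios of 0.036 and 0.24, with levels of 9.65, 9.69, 9.50 and 9.74 in channel order, and the modifier subunit Gclm had 0.014 and 0.064. The quinone reductase genes Nqo1, a standard NRF2 target, and Nqo2 were at 0.022 and 0.10, and at 0.057 and 0.24. Of the ligase and quinone reductase genes none was called after loess, and Gclc was past 1.5-fold in the treated pool with median centring (0.62). The AtrxdE2 median of the ligase pair turned to -0.025 with loess per block, that of the quinone reductases to -0.027 with median centring, and the treated-minus-untreated median of the ligase pair, 0.13, to -0.13 in the direct Cy3 difference.

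Of 18 cytosolic and mitochondrial glutathione S-transferase genes 17 were measured and none was called after loess. With median centring the treated ratios of Gstm5 (0.71), Gstt1 (0.63) and Gsta4 (0.60) passed 1.5-fold, and in the authors' value table that of Gstt3 (0.60). Their median was -0.10 in AtrxdE2 (7 of 17 above 0) and 0.016 in AtrxdE2+TMPyP4 (10 of 17 above 0), and the first became 0.047 with median centring and the second -0.004 with plain background subtraction. For the difference the median was 0.12 (12 of 17 above 0), but -0.049 (7 of 17) in the direct Cy3 difference. Members of the mu and pi classes are close in sequence and the probe sequences were not used here, so a probe may have captured transcripts of its relatives. Both classes held the lower end in AtrxdE2, where Gstp1 was at -0.50, Gstp2 at -0.38, Gstm3 at -0.35 and Gstm4 at -0.31 (-1.01 in the authors' value table, on a dim probe). Gstp1, the pi-class enzyme, had levels of 11.70 in wild type and 11.20 in AtrxdE2, and of 11.10 in both wild type and AtrxdE2+TMPyP4. Only the wild-type channel of the first array was high, so the AtrxdE2 value lay above the other wild-type channel. Its difference of 0.50 was past 1.5-fold with median centring (0.76) and in the authors' value table (0.60), but -0.11 in the direct Cy3 difference. Gstp2 and Gstm3 were below wild type on both arrays, at -0.38 and -0.31, and at -0.35 and -0.36, though with median centring the treated ratios were 0.055 and 0.010.

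Gstm7, a mu-class gene, was the lowest member in the treated pool. Its levels were 8.69 (wild type) and 8.44 (AtrxdE2), then 8.45 (wild type) and 7.88 (AtrxdE2+TMPyP4), which left the treated pool below the other 3 channels. The ratios were -0.25 and -0.57 (SD of probes nearest in signal 0.24 on each array), and the second passed 1.5-fold in the values the authors deposited (-0.75), when the blank level was subtracted (-0.74) and with loess per block (-0.61), and further from it with median centring (-0.38). The direct Cy3 difference was -0.60. Gstt1, a theta-class gene, was the second highest member in the treated pool, with ratios of 0.18 and 0.42 and levels of 8.44, 8.62, 8.09 and 8.50. The wild type of the second array was its lowest channel. Gstm5, a mu-class gene with strong expression in brain, had levels of 12.12 in wild type and 12.16 in AtrxdE2, but 11.31 and 11.56 on the treated array. Both channels of that array were lower, and the ratios were 0.050 and 0.25, with a direct Cy3 difference of -0.60. Gstm1 was at -0.13 and 0.011, Gsta4, which detoxifies lipid aldehydes, at 0.049 and 0.19, Gsto1 at -0.10 and 0.016, and Gstz1, which also acts in tyrosine breakdown, at 0.23 and 0.042.

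Of the microsomal transferases, Mgst1 was at -0.26 and -0.16 and had levels of 8.16, 7.91, 8.41 and 8.25. The Mgst3 spot was marked bad on the AtrxdE2 array and was left out. Its signals above blank were 182 and 306 there and 1302 and 2581 on the other array, where its ratio was -0.22.

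Glutathione peroxidases were the role with the lowest median in the treated pool, -0.20 with 1 of 5 measured members above 0, and -0.24 for the difference. The treated median was -0.46 with plain subtraction, -0.49 with median centring and -0.43 in the authors' value table. After loess this median was the value of Gpx2, a dim probe. Plain subtraction and the authors' value table have no offset to shrink the ratios of such probes. All values after loess were short of 1.5-fold. Gpx3, the secreted peroxidase, had levels of 7.98 (wild type) and 7.99 (AtrxdE2), then 7.46 (wild type) and 7.24 (AtrxdE2+TMPyP4). The second array was low in both channels, and the ratios were 0.014 and -0.22, with a direct Cy3 difference of -0.82. Gpx2, Gpx5 and Gpx6 were dim, with signals above blank of at most 33.9. Gpx2 had ratios of 0.12 and -0.20, and Gpx6 of -0.031 and -0.34. In the authors' value table the treated ratios of Gpx2 and Gpx6 were -1.07 and -1.17, and with median centring -0.59 and -0.63, both past 1.5-fold. Gpx7, an endoplasmic reticulum peroxidase, was at 0.034 and 0.18, and Gpx5 at -0.13 (-0.65 in the authors' value table) and -0.052. Gpx1 was not above background in any channel.

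**Figure D4:**
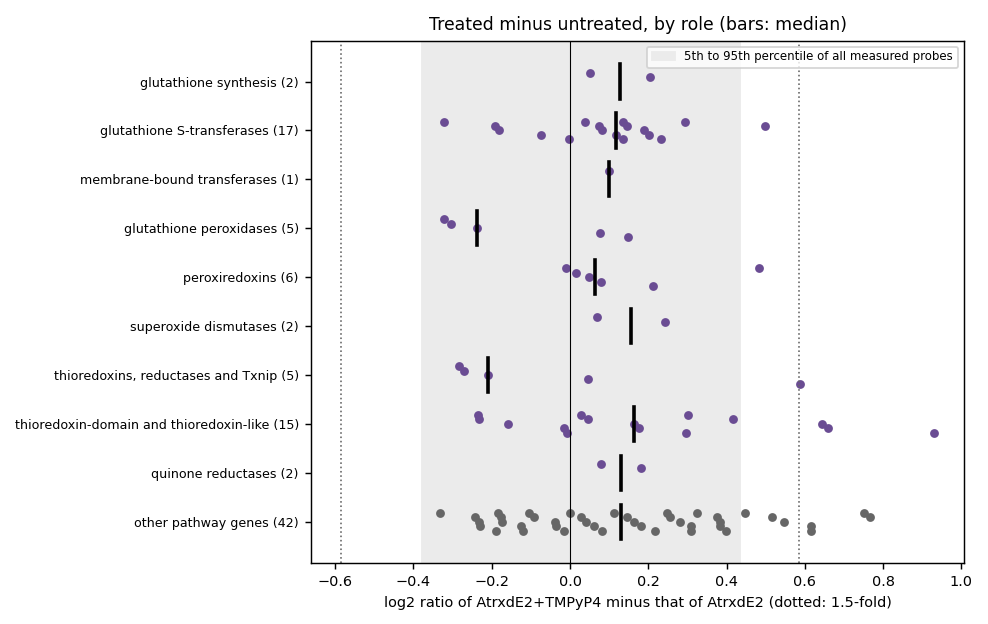
Treated-minus-untreated difference of the log2 ratios (x axis) of each measured member by role and of 42 other genes of the pathway (y axis, number of probes in brackets); bars mark medians, dotted lines 1.5-fold and the grey band the middle 90% of all measured probes, -0.38 to 0.43. Medians lie right of 0 except for the glutathione peroxidases (-0.24) and the thioredoxins with their reductases and Txnip (-0.21, but 0.17 in the direct Cy3 difference, where the S-transferases, -0.049, and the ligase pair, -0.13, go left of 0), and 3 thioredoxin-domain members, Txn2 and 4 other pathway genes lie beyond the right dotted line.

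The other members outside the measured set were at or near background. Bounds set the brighter channel against the lowest signal above background. Gsta2 was above it only in the wild-type channel of the first array, and gives no fold. Txndc8 was above it only in AtrxdE2, with a bound of 1.07-fold over wild type. Txndc2 was above it in 3 channels but not in AtrxdE2+TMPyP4, with a bound of 1.01-fold for wild type. Both lie close to the blank level. The signal of Txndc8 in AtrxdE2 was 7.14 above blank, with a blank SD of 3.30. That of Txndc2 on the treated array was 2.21 in wild type and 3.02 in AtrxdE2+TMPyP4. These bounds therefore give no direction. Txnl6 (now Nxnl1) was above background on the first array only, with a ratio of 0.043.

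**Figure D5:**
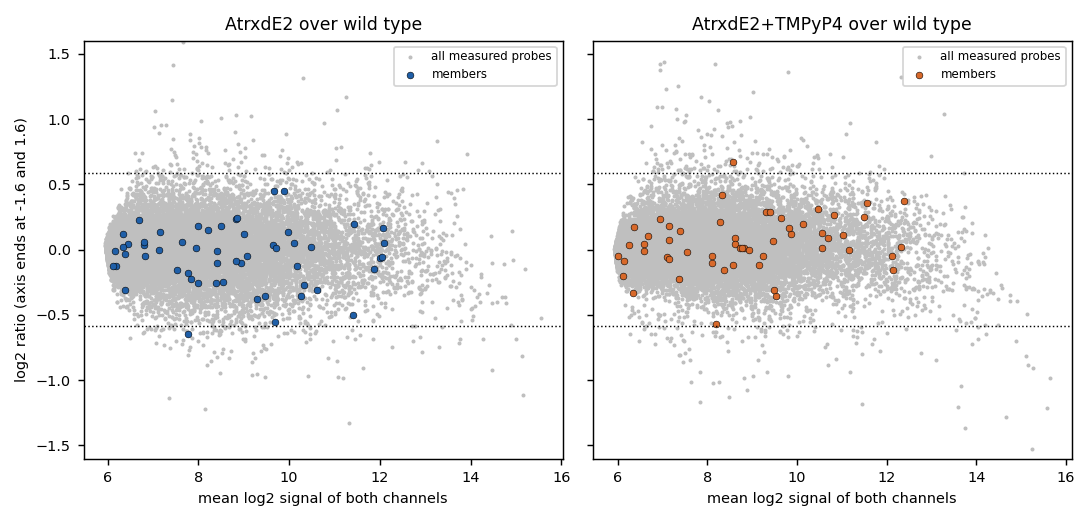
Log2 ratio over wild type (y axis) against the mean log2 signal of both channels (x axis) on the AtrxdE2 array (left) and the AtrxdE2+TMPyP4 array (right), for members (coloured) and all measured probes within the axis (grey); dotted lines mark 1.5-fold. The members spread over the whole signal range, with 41 of 55 above the median signal, and lie within the cloud of all probes.

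The spread of ratios grew with signal, and the members were brighter than most probes, so their calls were also set against probes above the median signal. There 1 of 41 members was called on each array, against 2.19% and 2.37% of probes, and 4 of 41 for the difference, against 5.69%.

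Other genes of the pathway were taken from a list of 47 symbols, of which 42 were on the array outside the members and all 42 were measured. None was called in AtrxdE2 over wild type, where 16 of 42 were above 0 and the median was -0.054. In AtrxdE2+TMPyP4 over wild type 29 of 42 were above 0 (median 0.049), and 1 was called on each side: Ephx1, the microsomal epoxide hydrolase, at 0.78 and the metallothionein gene Mt2 at -0.69. Mt2 was also low in AtrxdE2, at -0.50. For the difference 4 of 42 were called, all above 0, and the median was 0.13. Of all probes 3.62% were called in either direction and 2.11% on the higher side, as given above. They were A030007L17Rik (now Ggct, of the gamma-glutamyl cycle) with 0.77, the glyoxalase genes Glo1 with 0.75 and Hagh with 0.62, both of which use glutathione to clear methylglyoxal, and Ephx1 with 0.61. The wild-type channels differed by -0.88 for A030007L17Rik, 0.056 for Glo1, -0.0018 for Hagh and -0.16 for Ephx1. The normalized level of A030007L17Rik was 8.74 in AtrxdE2 and 8.59 in AtrxdE2+TMPyP4, so its level was not higher in the treated pool. Glo1, Hagh and Ephx1 had higher levels in the treated pool than in AtrxdE2.

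After loess the regulators and recycling enzymes named here stayed within 1.5-fold. In the authors' value table some ratios in AtrxdE2 and AtrxdE2+TMPyP4 lay more than 1.5-fold apart. These were Nfe2l2 (-0.43 and 0.18), Srxn1 (-0.20 and 0.40), Glrx (-0.13 and 0.50) and, in the other direction, Slc7a11 (0.50 and -0.26). The factor gene Nfe2l2 (NRF2) was at -0.23 and 0.17 and its inhibitor Keap1 at -0.027 and -0.20. Hmox1, the haem oxygenase gene that NRF2 induces, was at -0.083 and -0.19, and the cystine transporter gene Slc7a11 at 0.12 and -0.061. Srxn1, which restores overoxidised peroxiredoxins, was at -0.17 and 0.35, a difference of 0.52. Glutathione reductase (Gsr) was at -0.13 and 0.083, glutathione synthetase (Gss) at 0.033 and -0.20, catalase (Cat) at 0.093 and 0.0016, and glutaredoxin (Glrx) at -0.11 and 0.44, a difference of 0.55.

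Cell type markers differed between the groups and between the arrays. All 9 measured choroid plexus markers were past 1.5-fold in AtrxdE2+TMPyP4, with a summed level (linear, normalized) of 48233 against 4078 in wild type, while the first array had 4395 in AtrxdE2 and 3943 in wild type. In AtrxdE2 1 of the 9, Ttr, was past 1.5-fold, at 1.59 (6.59 in the treated pool). The wild-type channels differed by 1.61 for Ttr, second array minus first. In the treated pool Ttr was the brightest marker, at a log2 level of 15.25, and Enpp2 the next, at 12.92. The treated sum therefore follows mainly Ttr. The treated ratios of the other measured markers ran from 0.62 (Otx2) to 1.93 (Folr1). Of the 7 oligodendrocyte markers 2 were past 1.5-fold on the lower side in AtrxdE2 and 4 in the treated pool, with sums of 9347 against 15688 and of 12093 against 18496. Meningeal and fibroblast markers were past 1.5-fold on the higher side for 4 and 6 of 8, with sums of 1994 against 1251 and 2176 against 1148. None of the 8 astrocyte markers was called after loess, with sums between 19914 and 21983 in the 4 channels. Aldoc was the brightest of them in every channel and weighs most in these sums. Single ratios ran from -0.40 (Gjb6) to 0.41 (Slc1a2) in AtrxdE2. In the treated pool they ran from -0.24 (Slc1a3) to 0.58 (Slc1a2). The latter was just short of 1.5-fold, and 0.83 in the authors' value table. Hippocampal neuron markers were measured, and so above background in every channel, for 10 of 11 probes (not Fibcd1). Their sum was 14221 (wild type) and 15269 (AtrxdE2), then 7942 (wild type) and 7816 (AtrxdE2+TMPyP4), so the sum differed between the arrays in wild type itself. Nrgn and Camk2a, the brightest of them in every channel, had wild-type differences of -1.29 and -1.07, second array minus first. The other measured probes had wild-type differences between -0.16 (Wfs1) and 0.13 (a Zbtb20 probe). The lower sum on the second array thus follows Nrgn and Camk2a and does not hold for the rest of the list. Of the 5 striatal markers 2 were past 1.5-fold on the lower side in AtrxdE2 and 3 in the treated pool. The sums were 4081 in AtrxdE2 against 7112 in wild type, and 2301 in AtrxdE2+TMPyP4 against 3844. Both mutant pools were thus below the wild type beside them, and here too wild type differed between the arrays. Microglial sums were 4570, 4405, 3671 and 3340, those of 4 endothelial markers 3854, 4667, 4107 and 4249, and those of 4 blood markers 379, 470, 407 and 376, in channel order. Of the blood markers 1, S100a9, was past 1.5-fold in AtrxdE2, at 0.74 (-0.20 in the treated pool), with a difference of -0.93. The part of these differences in the member values was not tested.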

How the data were processed

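Total RNA was amplified, coupled to dyes and hybridised per the labels' protocols, with 1 pool per channel. Deposited spot intensities are medians at both wavelengths, combined over 3 gains and quality-marked, per the file headers. The authors' deposited value table holds log2 ratios of mutant over wild type, per the labels; its background and centring are unstated. Each value was within 0.02 of the log2 ratio of blank-subtracted intensities minus a constant of 0.65 (AtrxdE2) or 1.17 (AtrxdE2+TMPyP4), r = 0.99997, which settles scale, direction and centring. The median of each column is 0.0.

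From the intensities, background was corrected with normexp (limma 3.58.1, R 4.3.3, offset 50) on the mean of the 2736 blank spots, trimmed by 0.05 at each end, followed by loess per array with control spots at weight 0. Levels per channel are these values after quantile normalization of the mean signal of both arrays (Aquantile), whereas differences between wild-type channels and the direct Cy3 difference come from quantile-normalized background-corrected intensities. A probe was measured when not marked bad and above the trimmed blank mean plus 2 SD in all 4 channels, which 18668 of 23473 were. Median signals above blank were 42.2 and 36.01 in wild type, and 64.6 and 79.0 in AtrxdE2 and AtrxdE2+TMPyP4. The number of arrays limits the precision. The offset shrinks ratios of dim probes. With changes planted between the wild-type channels of the arrays (19517 probes), a log2 change of 1 was recovered with a median of 0.60 and -1 with -0.44. Recovery was not split by signal. Of the probes without a planted change 4.82% passed 1.5-fold. These channels come from different arrays, whereas the ratios over wild type are taken within an array, so that share does not carry over to them.

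Gene names come from the platform annotation (16631 probes with 1 gene, none with several, 6842 unnamed here) and RefSeq GRCm38.p6. Named with values were 24 measured members of a list of 29 core enzymes plus the 8 highest and 8 lowest members of each comparison (42 genes), plus others given for completeness of a role. Members and lists were chosen with earlier results of these data known. Alternatives were plain subtraction of the blank level, median centring, the authors' table, other filters, a 2-fold rule, the direct Cy3 difference and, chosen after seeing the data, loess within blocks.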

Additional observations from a re-analysis of the deposited data

Results flagged for a closer look

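For 4 members the ratio over wild type had opposite signs in the untreated and the treated AtrxdE2 pool and the difference passed 1.5-fold: Txndc4 (0.93 log2 units), Txndc13 (0.66), Txnl1 (0.64) and Txn2 (0.59), all higher in the treated pool. Each group was 1 pool, so the difference was not tested. For Txndc13 the treated ratio was 0.016, and -0.0044 with plain subtraction, where its sign was no longer opposite.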

How the results depend on the processing

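No replicates exist, so counts past 1.5-fold and medians were recomputed under each alternative. In AtrxdE2 over wild type the count of members was 1, and it was 5 with plain subtraction, 4 in the authors' value table, 2 with median centring (both higher), 2 with loess per block and 0 at 2-fold. All probes passed at 10.2%, 10.4%, 2.25%, 1.16% and 0.0857%. In AtrxdE2+TMPyP4 over wild type the count was 1, and it was 5, 5, 13 (11 higher and 2 lower), 2 and 0 in the same order, against 8.82%, 9.36%, 7.54%, 1.5% and 0.214% of all probes. For the difference the count was 4, and it was 7 with plain subtraction, 8 in the authors' table, 8 with median centring, 3 with loess per block, 6 in the direct Cy3 difference (3 higher and 3 lower) and 0 at 2-fold, against 18.5%, 18.5%, 6.5%, 3.41%, 13.2% and 0.477%. Filters above the median signal and without any filter left the counts at 1, 1 and 4. Medians over the members ranged from -0.06 to 0.047 in AtrxdE2, from 0.021 to 0.30 in AtrxdE2+TMPyP4 and from 0.061 to 0.19 for the difference, with the highest value of each under median centring. Over all probes counted under each setting the median shifted by less than 0.1 under each of these settings. The scaling of each setting places that median near 0, so its steadiness is no comparison for the members. The members were brighter than most probes (41 of 55 above the median signal), and no median of equally bright probes was taken under the alternatives. Median centring differs from the main setting only in the scaling step. It subtracts 1 constant per array in place of the loess fit on signal, so a trend of ratios with signal stays in its values. Beyond that step, the cause of the shifts of the members was not tested. No paired analysis was possible because each group is 1 pool.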
